A study of Mus musculus with 6 samples.

Results

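The genes described were 10 components of the Notch pathway, namely the receptors *Notch1*, *Notch2* and *Notch3*, the ligands *Jag1*, *Jag2* and *Dll1*, and the transcriptional repressors *Hes1*, *Hes6*, *Hey1* and *Heyl*. They were chosen by name, with earlier results of these data known. All 10 were found, each on an entry of its own, among the 22513 entries of the expression table. All 10 passed the filter on low values, which kept the 15894 entries whose mean reached 0.1 FPKM. RNA had been sequenced from fetal thymic lobes of C57BL/6 mice, taken at E15.5 and cultured for 4 days in 2-deoxyguanosine (2-DG), a nucleoside that kills developing lymphoid cells and leaves the stroma. The lobes were wild type (WT) or *Jmjd6*-/-, the latter from crosses of heterozygous mice and therefore lacking *Jmjd6* in every cell of the culture. They were left unstimulated (1 library per genotype) or stimulated for 4 days with RANKL, the cytokine that drives maturation of medullary thymic epithelial cells (mTECs), with 2 libraries per genotype. The labels call the repeated libraries technical duplicates and the study calls them samples, so p-values measure only the spread between these libraries.

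Notch receptors are cell surface proteins that are cleaved when they bind a ligand of the Jagged or Delta family on a neighbouring cell. The freed intracellular domain enters the nucleus and joins the DNA-binding protein RBPJ, and the repressors of the Hes and Hey families are its best known targets. In the thymus, Delta ligands on epithelial cells direct progenitors to the T-cell lineage, and Notch activity within the epithelium is also known to take part in forming the medullary lineage. *Hes6* differs from its relatives in that it is known mainly as an antagonist of Hes1 and as a gene of neural and neuroendocrine differentiation.

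Estimated depth ran from 14600000 to 32000000 fragments per library. The smallest number of fragments behind a value of these 10 genes was about 203, for *Dll1* in unstimulated *Jmjd6*-/- stroma, and this number corresponds to a counting error of 7.0%. *Jmjd6* was at 25.9 to 32.46 FPKM in WT and 1.316 to 1.962 FPKM in *Jmjd6*-/- libraries, and *Aire* was at 67.1 to 79.73 FPKM with RANKL and 0.1422 to 0.4734 FPKM without it. FPKM, the fragment count of a gene scaled by its exon length and by the mapped fragments of the library, is a level per length and can be set side by side between genes. The WT RANKL libraries stood further apart from each other than the *Jmjd6*-/- RANKL libraries, with a median absolute difference of 0.28 against 0.077 (log2) over 12587 genes, and their difference moved with GC content by 0.69 over 10 groups of genes. Summed over 6 epithelial markers, the level was 3264 to 4786 FPKM. T-cell markers were low, with *Rag2* listed at 0 in every library and *Cd3e* at 0.03448 FPKM in a single library and at 0 in the rest. The summed level of all 8 markers was 0.9958 to 3.31 FPKM. Most of it came from *Lck* (0.3896 to 1.913 FPKM) and *Cd4* (0.3322 to 1.449 FPKM), and *Lck* was called higher with RANKL (adjusted p = 0.0226 from limma). Macrophage markers remained, at 422.5 to 544.7 FPKM over the 5 found.

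Sequences are shown for *Hes6*, which differed between genotypes, and for *Jag1* and *Notch3*, which fell with RANKL, so that the motifs near the starts of these called genes can be compared. For *Hes6*, *Jag1* and *Notch3* the 250 bases before the annotated start are given 5′ to 3′ on the strand of the gene, from RefSeq on GRCm38.p6, with motif matches in capitals. The windows are chr1:91413223-91413472 for *Hes6*, chr2:137116521-137116770 for *Jag1* and chr17:32166891-32167140 for *Notch3*, all on the minus strand.
Hes6: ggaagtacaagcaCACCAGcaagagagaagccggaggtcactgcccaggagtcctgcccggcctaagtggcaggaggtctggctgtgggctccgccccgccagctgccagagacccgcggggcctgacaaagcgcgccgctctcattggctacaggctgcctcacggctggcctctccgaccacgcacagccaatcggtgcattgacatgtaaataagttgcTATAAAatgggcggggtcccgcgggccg
Jag1: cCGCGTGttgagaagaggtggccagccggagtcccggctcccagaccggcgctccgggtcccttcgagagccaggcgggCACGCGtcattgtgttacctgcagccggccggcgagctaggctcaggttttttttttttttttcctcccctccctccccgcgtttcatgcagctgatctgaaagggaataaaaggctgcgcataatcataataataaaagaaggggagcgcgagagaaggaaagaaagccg
Notch3: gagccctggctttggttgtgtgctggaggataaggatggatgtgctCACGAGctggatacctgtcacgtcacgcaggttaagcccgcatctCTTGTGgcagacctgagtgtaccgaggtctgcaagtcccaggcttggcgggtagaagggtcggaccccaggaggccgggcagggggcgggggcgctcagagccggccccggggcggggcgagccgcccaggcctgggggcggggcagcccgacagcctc

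The 5 motifs named next were searched on both strands over 250 bases before to 50 after each start, and the shares refer to 32851 such windows. These were the RBPJ core TGGGAA (25.6% of windows), the N box CACNAG bound by Hes proteins (42.5%), the class C site CACGCG bound by Hes and Hey proteins (9.27%), the E box CACGTG (7.15%) and the TATA box TATAAA (13.6%). RefSeq windows were matched for 7 of the 10 genes, 9 windows in all, and *Hes1*, *Hey1* and *Heyl* had none. The *Hes6* window held an N box 237 bases before the start, a TATA box 28 bases before it, and a further N box on the opposite strand 15 bases after it, beyond the bases printed. The *Jag1* window held class C sites at 171 and, on the opposite strand, 249 bases before the start, and the *Notch3* window held N boxes at 204 and, on the opposite strand, 159 bases before it. Across the 9 windows, 5 held an N box, 4 a class C site, 1 the TATA box, and 0 the RBPJ core or the E box. A match of letters is a description of the window and no evidence of binding. The start of *Hes6* and that of *Jag1* are those of the deposited loci, whereas the RefSeq start of *Notch3* lies outside the deposited locus. A second *Hes6* window, with its start at 91414038, held none of the motifs.

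The repressors *Hey1*, *Hes6* and *Hes1* were the most abundant of the 10 genes. Averaged over the 6 libraries, *Hey1* had 185.1 FPKM, *Hes6* 161.3 FPKM and *Hes1* 95.56 FPKM. Next came *Jag2* with 52.49 FPKM, *Heyl* with 30.6 FPKM and *Jag1* with 28.15 FPKM. The receptors *Notch1* (17.41 FPKM), *Notch3* (17.38 FPKM) and *Notch2* (13.02 FPKM) were lower, and *Dll1* was lowest with 4.072 FPKM. Between neighbours in this order, the ranges over the 6 libraries were apart only between *Hes1* and *Jag2*, between *Jag1* and *Notch1* and between *Notch2* and *Dll1*, and the ranges of all other neighbours overlapped. The unstimulated *Jmjd6*-/- library was the highest of the 6 for 7 genes, which were all 3 receptors, both Jagged ligands, *Hey1* and *Heyl*. This order rests on 1 library, and the share of all genes that show it was not counted. By the study's rule for variable genes, a ratio above 3 between the highest and the lowest library with 0.1 added, 0 of the 10 were variable, against 14.3% of all entries. The ratio was largest for *Heyl* (2.785) and *Hes6* (2.481) and smallest for *Hey1* (1.206).

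**Figure D1:**
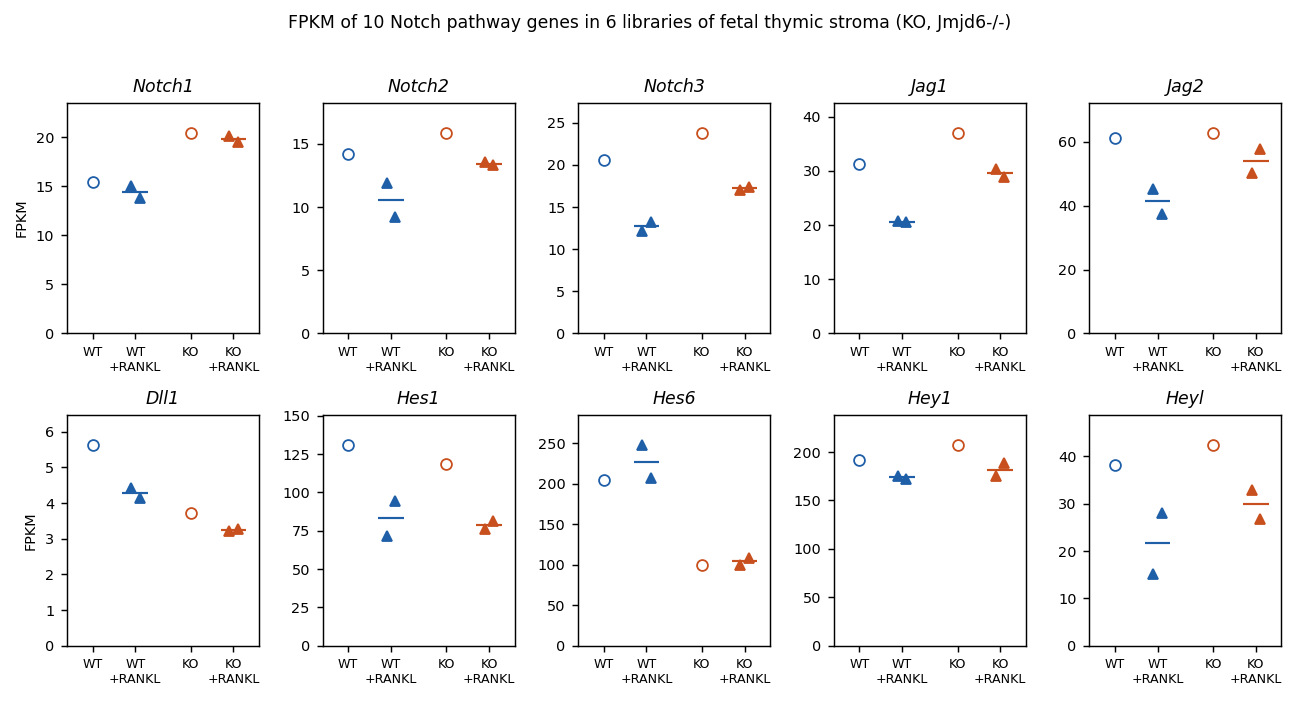
FPKM (vertical axes, from 0) of the 10 genes in each of the 6 libraries, by genotype and stimulation (KO, *Jmjd6*-/-). Open circles are unstimulated libraries, filled triangles RANKL libraries, and horizontal lines the mean of 2 RANKL libraries. *Hes6* lies at 99.84 to 108.5 FPKM in the 3 *Jmjd6*-/- libraries and at 205.0 to 247.9 FPKM in the 3 WT libraries.

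*Hes6* was lower in *Jmjd6*-/- than in WT stroma, with and without RANKL. In WT stroma it had 205.0 FPKM without stimulation and 247.9 and 206.8 FPKM with RANKL, and in *Jmjd6*-/- stroma 99.88 FPKM without stimulation and 99.84 and 108.5 FPKM with RANKL. All 3 *Jmjd6*-/- libraries thus lay below all 3 WT libraries, while the mean of the RANKL libraries was 1.109 times the unstimulated level in WT and 1.043 times in *Jmjd6*-/- stroma. The RANKL means were 227.3 ± 29.04 FPKM (SD, n = 2) in WT and 104.2 ± 6.153 FPKM (SD, n = 2) in *Jmjd6*-/- stroma, a ratio of 0.4583. The log2 difference was -1.12 (SE 0.13, 95% interval -1.46 to -0.78, adjusted p = 0.0284 in limma, Benjamini-Hochberg over all genes tested). The unstimulated libraries, 1 against 1 and without a test, gave nearly the same ratio, 0.4873. Of the 10 genes, only *Hes6* was called lower in RANKL-stimulated *Jmjd6*-/- stroma, where 1.82% of all genes tested were called lower, and 0 of the 10 were called higher, where 0.516% were. The call was lost without *Jmjd6*-/- RANKL replicate 1 (adjusted p = 0.138) or replicate 2 (adjusted p = 0.115 from limma), which leaves a lone library in that group, and without the filter on low values (adjusted p = 0.180). In bulk RNA, fewer cells of a type and less RNA per cell cannot be told apart. The study also listed an intron of *Hes6* among those retained more in *Jmjd6*-/- than in WT stroma with RANKL. The part of this intron in the *Hes6* difference was not tested.

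*Hes6* occupies chromosome 1 from 91411483 to 91413222 on the minus strand of mm10 (entry XLOC_000881), in 4 exons and with no other gene overlapping it. A comparison of genotypes over all 6 libraries, 3 against 3 with RANKL as a term, was added after seeing the data. It gave a log2 difference of -1.09 for *Hes6* (adjusted p = 0.00432 from limma). In this fit 1 of the 10 genes was called lower against 3.38% of all genes, and 2, *Notch1* and *Jag1*, were called higher against 2.05%.

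Summed markers of mesenchyme and of endothelium were, as *Hes6* was, lower in all 3 *Jmjd6*-/- than in all 3 WT libraries. Among single genes, 9.14% of all genes tested showed this order. The summed level of 8 mesenchyme markers was 645.8 to 704.9 FPKM in the 3 WT libraries and 307.1 to 412.9 FPKM in the 3 *Jmjd6*-/- libraries. Of these, *Col1a2* and *Col3a1*, which encode fibrillar collagens, were called lower in RANKL-stimulated *Jmjd6*-/- stroma (adjusted p = 0.0350 and 0.0280 from limma). *Col3a1* had 235.1 and 244.7 FPKM in WT and 115.2 and 124.9 FPKM in *Jmjd6*-/- stroma with RANKL. Between the RANKL-stimulated genotypes, 0 of the 8 were called higher. Over 9 endothelium markers the sum was 15.46 to 31.66 FPKM in WT and 5.782 to 11.61 FPKM in *Jmjd6*-/- libraries. *Pecam1*, *Cdh5* and *Tie1* were called lower (log2 difference -1.74, adjusted p = 0.0282 from limma, for *Pecam1*). Both lists departed from *Hes6* with RANKL, where *Hes6* was at 0.10 (log2) against unstimulated stroma. The endothelium sum was lower with RANKL in both genotypes. In *Jmjd6*-/- stroma the mesenchyme sum was 307.1 FPKM without and 412.9 and 398.5 FPKM with RANKL. *Hes6* had 99.88 FPKM without and 99.84 and 108.5 FPKM with RANKL there. Of the 8 mesenchyme markers, 2 (*Dcn* and *Thy1*) were called higher with RANKL and 0 lower. The summed level of epithelium markers, 3264 to 4452 FPKM in WT and 4748 to 4786 FPKM in *Jmjd6*-/- libraries, went the other way. *Krt5* and *Krt8* (means 1628 and 2330 FPKM) made up most of it. With RANKL, the genotype difference was above 0 for 5 of the 6, whereas *Epcam* had 205.7 FPKM in WT and 186.8 FPKM in *Jmjd6*-/- stroma. Of the 6, 0 were called between genotypes. Summed over 9 neuroendocrine markers, the level was 36.28 and 17.26 FPKM in unstimulated WT and *Jmjd6*-/- stroma and 174.5 to 204 FPKM with RANKL. Tuft cell markers summed to 5.72 to 12.4 FPKM, with 0 of 6 called between genotypes. The part of the mesenchyme and endothelium markers in the *Hes6* difference was not tested.

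**Figure D2:**
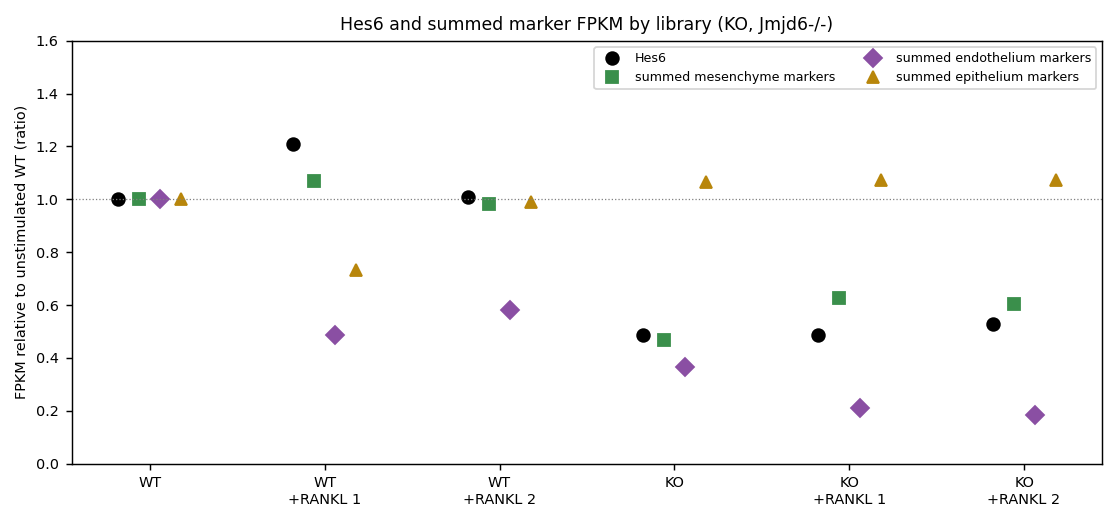
FPKM of *Hes6* and summed FPKM of mesenchyme, endothelium and epithelium markers, each divided by its value in the unstimulated WT library (vertical axis, ratio, from 0), for the 6 libraries (KO, *Jmjd6*-/-). *Hes6* and the mesenchyme sum are both lower in the 3 *Jmjd6*-/- libraries, at 99.84 to 108.5 FPKM and 307.1 to 412.9 FPKM, while the epithelium sum is not lower there.

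The 3 genes whose pattern over the 6 libraries was most like that of *Hes6*, by Pearson's r on log2 values among the 12586 other genes whose mean reached 1 FPKM, were *Serping1* (r = 0.9943), *Cav1* (r = 0.9942) and *Emilin1* (r = 0.993). *Serping1* encodes the C1 esterase inhibitor, *Cav1* the main protein of caveolae and *Emilin1* a glycoprotein of elastic fibres. *Cav1* had 5.509 FPKM in WT without stimulation, 8.79 and 6.987 FPKM in WT with RANKL, 1.347 FPKM in unstimulated *Jmjd6*-/- and 1.467 and 1.433 FPKM in *Jmjd6*-/- stroma with RANKL. The 6 points share their libraries and fall into 2 genotypes, so that these correlations are descriptions and carry no p.

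RANKL lowered the level of a receptor, a ligand and a repressor. The comparison set 4 RANKL libraries against 2 unstimulated libraries with genotype as a term. *Notch3*, *Jag1* and *Hes1* fell, 3 of the 10 genes against 4.11% of all genes tested, and 0 of the 10 rose against 10.5%. The 3 calls became 0 without *Jmjd6*-/- RANKL replicate 1, 1 without its replicate 2 and 5 without WT RANKL replicate 2. Over the 10 genes the median log2 difference was -0.37, beside -0.02 over all genes tested, and 6 had an unadjusted p under 0.05, as did 4722 of the 15894 genes tested. In 7 of the 10 all 4 RANKL libraries lay below both unstimulated libraries, an order that 18.5% of all genes tested showed, and in 0 of the 10 they lay above, against 18.9%. These 7 were *Notch2*, *Notch3*, *Jag1*, *Jag2*, *Hes1*, *Hey1* and *Heyl*. Levels of cortical epithelium markers moved in the same direction, with a summed level over 6 markers of 13670 and 14440 FPKM without RANKL and 8884 to 10790 FPKM with it, of which 3 (*Prss16*, *Ly75* and *Cxcl12*) were called lower. Over the 8 medullary markers found, the sum was 38.29 and 44.85 FPKM without RANKL and 251.1 to 266.6 FPKM with it, and 7 were called higher. The 9 endothelium markers had a summed level of 31.66 FPKM without and 15.46 and 18.45 FPKM with RANKL in WT, and of 11.61 FPKM without and 6.703 and 5.782 FPKM with RANKL in *Jmjd6*-/- stroma. Of these, 4 (*Pecam1*, *Cdh5*, *Kdr* and *Tie1*) were called lower. The part of these shifts in the falls of the Notch genes was not tested.

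Among the receptors, *Notch3*, known for its place in vascular mural cells, was at 20.61 FPKM without stimulation and at 12.19 and 13.24 FPKM with RANKL in WT. In *Jmjd6*-/- stroma it had 23.82 FPKM without and 17.08 and 17.33 FPKM with RANKL. RANKL libraries were thus below the unstimulated one in both genotypes, with a log2 difference of -0.58 (SE 0.098, adjusted p = 0.0106 from limma). The fall was not called without *Jmjd6*-/- RANKL replicate 1 (adjusted p = 0.0548) or without the genotype term (adjusted p = 0.106 from limma). Of the 8 pericyte and smooth muscle markers, *Mcam* fell and *Rgs5* rose with RANKL, and the summed level was 83.33 and 103.9 FPKM without RANKL and 84.91 to 118 FPKM with it. Between the RANKL-stimulated genotypes the median log2 difference of the 8 was -0.44, with 2 of the 8 above 0, and only *Tagln* was called, higher in *Jmjd6*-/- stroma. The part of these cells was not tested. *Notch3* (XLOC_008647) lies on chromosome 17 from 32120893 to 32166852 on the minus strand, and *Gm17276* overlaps it on the opposite strand, so reads of both cannot be told apart in libraries made without strand marking. The most similar patterns were those of *Ski* (r = 0.9988), *Inpp4a* (r = 0.9979) and *Pts* (r = 0.9974).

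*Notch1* (XLOC_011297, chromosome 2, 26457902 to 26503822, minus strand, with 2 genes overlapping on the opposite strand and the same limit on strand), the receptor needed for T-cell commitment in progenitors, had 15.48 FPKM in WT without stimulation, 15.03 and 13.84 FPKM in WT with RANKL, and 20.46, 20.16 and 19.50 FPKM in the corresponding *Jmjd6*-/- libraries. Of the 10 genes, only *Notch1* had all 3 *Jmjd6*-/- libraries above all 3 WT libraries, an order found in 9.14% of all genes tested. RANKL left it at a log2 difference of -0.07 (SE 0.089, 95% interval -0.29 to 0.14, adjusted p = 0.621 from limma). Between the RANKL-stimulated genotypes the log2 difference was 0.46 (SE 0.12, adjusted p = 0.122 from limma), past the threshold neither there nor in 13 of 15 alternatives. It passed over all 6 libraries (0.44, adjusted p = 0.0349 from limma) and without WT RANKL replicate 1 (0.52, adjusted p = 0.0335). *Notch2* (XLOC_012482, chromosome 3, 98013538 to 98150367, plus strand) was at 14.23 FPKM in unstimulated WT, at 11.91 and 9.237 FPKM in WT with RANKL, and at 15.89, 13.54 and 13.30 FPKM in *Jmjd6*-/- stroma. Its log2 differences were -0.34 for RANKL (SE 0.13, adjusted p = 0.136 in limma) and 0.35 between genotypes (SE 0.16, adjusted p = 0.332), neither past the threshold.

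Among the ligands, *Jag1* (XLOC_011898, chromosome 2, 137081451 to 137116520, minus strand) was at 31.25 FPKM without stimulation and at 20.72 and 20.58 FPKM with RANKL in WT. In *Jmjd6*-/- stroma it had 37.06 FPKM without and 30.36 and 28.90 FPKM with RANKL. The fall with RANKL was -0.46 on the log2 scale (SE 0.095, adjusted p = 0.0225 from limma). It was the least stable of the 3 falls, with 8 of 13 alternatives past the threshold, and was lost for example without *Jmjd6*-/- RANKL replicate 1 (adjusted p = 0.0693) or replicate 2 (adjusted p = 0.0918 from limma). Both *Jmjd6*-/- RANKL libraries lay well above both WT RANKL libraries. The genotype difference of 0.52 (SE 0.11, 95% interval 0.25 to 0.79) had an adjusted p of 0.0753 from limma, and of 0.0450 over all 6 libraries (log2 difference 0.43). The most similar patterns were those of *Rmdn1* (r = 0.9954), *Cul7* (r = 0.9945) and *Lrrc71* (r = 0.9943).

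*Jag2* (XLOC_004664, chromosome 12, 112908590 to 112929495, minus strand), the more abundant Jagged ligand, had 61.13 FPKM in WT without stimulation, 45.18 and 37.54 FPKM in WT with RANKL, and 62.86, 50.35 and 57.90 FPKM in the corresponding *Jmjd6*-/- libraries. Like *Jag1*, it was lower in the RANKL libraries of each genotype and higher in both *Jmjd6*-/- RANKL libraries than in both WT ones, with log2 differences of -0.39 for RANKL (SE 0.13, adjusted p = 0.0892 in limma) and 0.39 between genotypes (SE 0.14, adjusted p = 0.231) that did not pass the threshold. *Dll1* (XLOC_008494, chromosome 17, 15367354 to 15375823, minus strand), a Delta ligand, ran the other way between genotypes. It had 5.629 FPKM in WT without stimulation, 4.429 and 4.150 FPKM in WT with RANKL, and 3.726, 3.222 and 3.274 FPKM in *Jmjd6*-/- stroma. With *Hes6* it was 1 of 2 genes with all 3 *Jmjd6*-/- libraries below all 3 WT libraries, against 9.14% of all genes tested. The log2 difference under RANKL was -0.39 (SE 0.16, adjusted p = 0.290 from limma), and over all 6 libraries -0.45 (adjusted p = 0.0902). *A930024N18Rik* overlaps *Dll1* on the opposite strand, with the same limit on strand as for *Notch3*.

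Considering the 4 RANKL libraries alone, both *Jmjd6*-/- libraries lay above both WT libraries for 5 of the 10 genes, against 24.5% of all genes tested, and these were all 3 receptors and both Jagged ligands. Both lay below for 2, *Dll1* and *Hes6*, against 26.2%. Of the 5 higher genes, 4 (*Notch1*, *Notch3*, *Jag1* and *Jag2*) had an unadjusted p under 0.05, as did 2987 of the 15894 genes tested, and 0 passed after adjustment. The median log2 difference over the 10 genes was 0.37, beside 0.01 over all genes tested. Without WT RANKL replicate 1, *Notch1*, *Notch2*, *Notch3* and *Jag1* were called higher in *Jmjd6*-/- stroma. In the same setting 2254 of all genes were called higher, against 82 with all libraries.

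**Figure D3:**
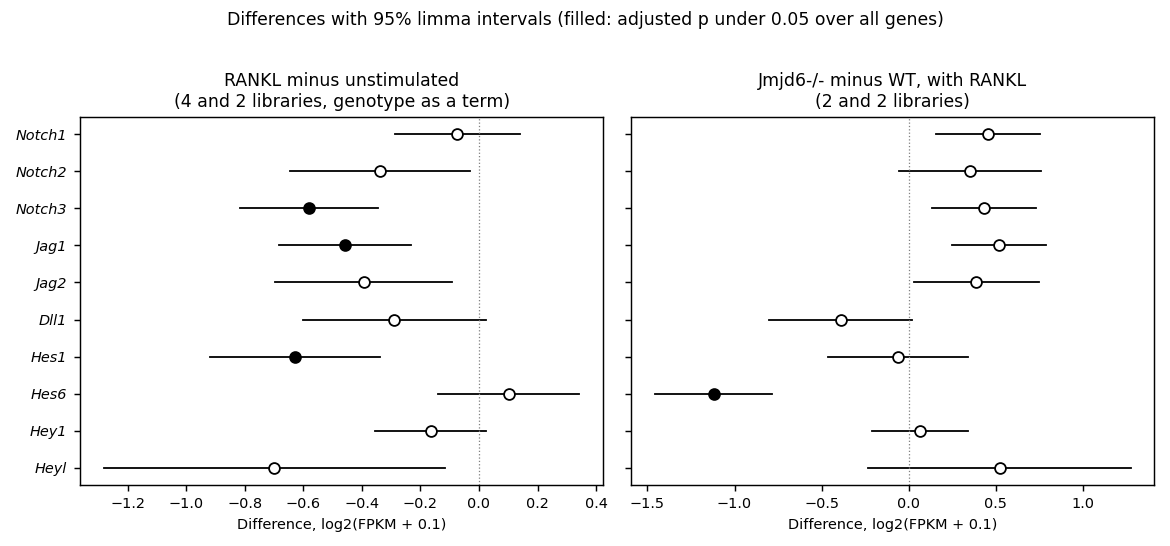
Log2 differences, on the log2(FPKM + 0.1) scale, with 95% limma intervals for RANKL against unstimulated libraries (left) and *Jmjd6*-/- against WT with RANKL (right), 1 row per gene. Filled points passed an adjusted p of 0.05 over all genes, which were *Notch3*, *Jag1* and *Hes1* on the left and *Hes6* on the right.

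Among the repressors, *Hes1* (XLOC_007317, chromosome 16, 30065357 to 30067796, plus strand), the classical Notch target, fell with RANKL. In WT its FPKM was 130.9 without stimulation and 71.65 and 94.52 with RANKL, and in *Jmjd6*-/- stroma 118.5 without and 76.31 and 81.49 with RANKL. All 4 RANKL libraries lay below both unstimulated ones, with a log2 difference of -0.63 (SE 0.12, adjusted p = 0.0177 from limma). The call was lost without *Jmjd6*-/- RANKL replicate 1 (adjusted p = 0.0719) or replicate 2 (adjusted p = 0.0522 from limma) and without the filter on low values (adjusted p = 0.106). Between genotypes the libraries overlapped (-0.06, 95% interval -0.46 to 0.34, adjusted p = 0.879 from limma), and without WT RANKL replicate 2 the difference turned to 0.14. The most similar patterns were those of *Cd83* (r = 0.9954), *N6amt1* (r = 0.9926) and *Zfp36l2* (r = 0.9873).

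*Hey1* (XLOC_012684, chromosome 3, 8663359 to 8667038, minus strand) had the smallest range of the 10 genes. It had 191.7 FPKM in WT without stimulation, 175.7 and 171.9 FPKM in WT with RANKL, and 207.3, 175.3 and 188.6 FPKM in the corresponding *Jmjd6*-/- libraries. Its log2 difference was -0.17 with RANKL (95% interval -0.35 to 0.02, adjusted p = 0.218 from limma) and 0.07 between genotypes (95% interval -0.21 to 0.34, adjusted p = 0.809). *Heyl* (XLOC_013609, chromosome 4, 123233556 to 123249870, plus strand), also known from vascular smooth muscle, spread most between replicates. It had 38.25 FPKM in WT without stimulation, 15.16 and 28.09 FPKM in WT with RANKL, and 42.41, 32.81 and 26.86 FPKM in *Jmjd6*-/- stroma. The log2 difference with RANKL was the largest of the 10 in size, -0.70, but with an SE of 0.24 it did not pass the threshold (adjusted p = 0.110 from limma). It passed without WT RANKL replicate 1 (adjusted p = 0.0238) or without replicate 2 (adjusted p = 0.0299 from limma), with log2 differences of -0.48 and -0.86. *Hes6*, in contrast, was at 0.10 (SE 0.10, 95% interval -0.14 to 0.34, adjusted p = 0.544 from limma) with RANKL.

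A difference between genotypes in the response to RANKL was called for 0 of the 10 genes by limma, against 0% of all genes tested, where 664 genes and 0 of the 10 had an unadjusted p under 0.05. The unstimulated groups had 1 library each, so the intervals were wide. For *Jag2* the difference in response was 0.35 (95% interval -0.27 to 0.97), and for *Hes6* -0.08 (95% interval -0.67 to 0.50). Within each genotype, taken without a test, *Jag1* with RANKL was at 0.6608 of the unstimulated level in WT and at 0.7995 in *Jmjd6*-/- stroma, and *Notch3* at 0.6169 and 0.7224.

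Of 61 other genes of the pathway, 58 passed the filter. With RANKL 6 rose and 3 fell, near the 10.5% and 4.11% of all genes tested. Between the RANKL-stimulated genotypes 0 were higher and 4 lower in *Jmjd6*-/- stroma, against 0.516% and 1.82%. With all libraries kept, the 4 lower genes became 0 without the filter on low values and 1 with a filter at 1 FPKM. In the comparison of genotypes over all 6 libraries they became 5. Both genotype counts also depended on which RANKL library was left out, as did the counts over all genes. Such a fit leaves a lone library in 1 group. With RANKL, 7 fell without WT RANKL replicate 1, where 1387 of all genes fell, against 654 with all libraries. When either of the *Jmjd6*-/- RANKL libraries was left out, 3 rose and 1 fell, and the counts over all genes were also lower. The median log2 difference over the 58 was -0.09 with RANKL and -0.004 between genotypes. Machinery that receptors and ligands share did not pass in either comparison, with 0 of 10 genes for receptor cleavage, 0 of 4 for ligand endocytosis and 0 of 7 tested for the nuclear complex, although 1 gene for cleavage (between genotypes) and 1 for endocytosis (with RANKL) had an unadjusted p under 0.05. *Rbpj*, the DNA-binding partner of the receptors, had 16.40 FPKM in WT without stimulation, 20.69 and 15.52 FPKM in WT with RANKL, and 15.18, 17.11 and 15.72 FPKM in *Jmjd6*-/- stroma (adjusted p = 0.587 with RANKL and 0.758 between genotypes, both from limma).

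The most abundant Notch ligand of the tissue was outside the 10 genes. *Dll4*, which drives T-cell commitment, had 141.7 FPKM in WT without stimulation, 98.09 and 111.1 FPKM in WT with RANKL, and 105.0, 100.4 and 92.31 FPKM in *Jmjd6*-/- stroma. Its 6 values lay above those of *Jag2* in every library, and neither of its log2 differences, -0.28 for RANKL (adjusted p = 0.135 in limma) and -0.12 between genotypes (adjusted p = 0.672), passed the threshold. *Dll3*, a ligand known to act within its own cell, was listed at 0 in both unstimulated libraries and had 0.3864 and 0.3798 FPKM in WT and 0.2896 and 0.2449 FPKM in *Jmjd6*-/- stroma with RANKL (adjusted p = 0.00596 from limma). *Hes5* fell from 0.4656 and 0.3019 FPKM to at most 0.1059 FPKM (adjusted p = 0.0351), and *Hes7* rose from 0.7466 and 0.5576 FPKM to between 1.010 and 2.045 FPKM (adjusted p = 0.0449). These 3 genes had low levels throughout, far below those of *Hes1* and *Hey1*.

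Among target genes of RBPJ, *Il2ra*, the alpha chain of the interleukin 2 receptor, rose from 0.2349 and 0.3018 FPKM to 5.485 to 10.33 FPKM with RANKL, a log2 difference of 4.50 (adjusted p = 7.14e-05 from limma). *Nrarp*, a feedback inhibitor of Notch, had 92.41 FPKM in WT without stimulation, 64.61 and 60.99 FPKM in WT with RANKL, and 97.41, 82.48 and 90.39 FPKM in *Jmjd6*-/- stroma. As for *Jag1*, it was lower with RANKL in both genotypes and higher in both *Jmjd6*-/- RANKL libraries than in both WT ones, with log2 differences of -0.37 for RANKL (adjusted p = 0.0738) and 0.46 between genotypes (adjusted p = 0.102 from limma) that did not pass. *Id3*, an inhibitor of E proteins, rose with RANKL by 0.78 on the log2 scale (adjusted p = 0.00226) and was lower in *Jmjd6*-/- stroma, with a log2 difference of -0.72 (adjusted p = 0.0475 from limma). *Ccnd1*, which encodes cyclin D1, had 5.397 to 7.852 FPKM in the 3 WT and 2.527 to 2.660 FPKM in the 3 *Jmjd6*-/- libraries, and its log2 difference between genotypes was -1.42 (adjusted p = 0.0335 from limma).

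The other genes called lower in RANKL-stimulated *Jmjd6*-/- stroma were *Dlk1*, a membrane protein related to Delta, and *Mfng*, a glycosyltransferase that modifies Notch receptors. *Dlk1* had 9.644 and 15.80 FPKM in WT and 4.139 and 3.279 FPKM in *Jmjd6*-/- stroma with RANKL (log2 difference -1.72, adjusted p = 0.0473 from limma). *Mfng* had 1.348 and 2.136 FPKM in WT and 0.274 and 0.3329 FPKM in *Jmjd6*-/- stroma with RANKL (-2.16, adjusted p = 0.0396). Both were also lower in the unstimulated *Jmjd6*-/- library, as was *Hes6*. Among inhibitors and turnover factors, the ubiquitin ligase gene *Dtx4* fell with RANKL (-0.72, adjusted p = 0.0078 from limma), as did *Cir1* (-0.47, adjusted p = 0.0275), a corepressor that binds RBPJ. *Dtx2*, a relative of *Dtx4*, rose (0.57, adjusted p = 0.0277 from limma), and so did *Bend6* (1.27, adjusted p = 0.0286), a nuclear repressor of Notch output.

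**Figure D4:**
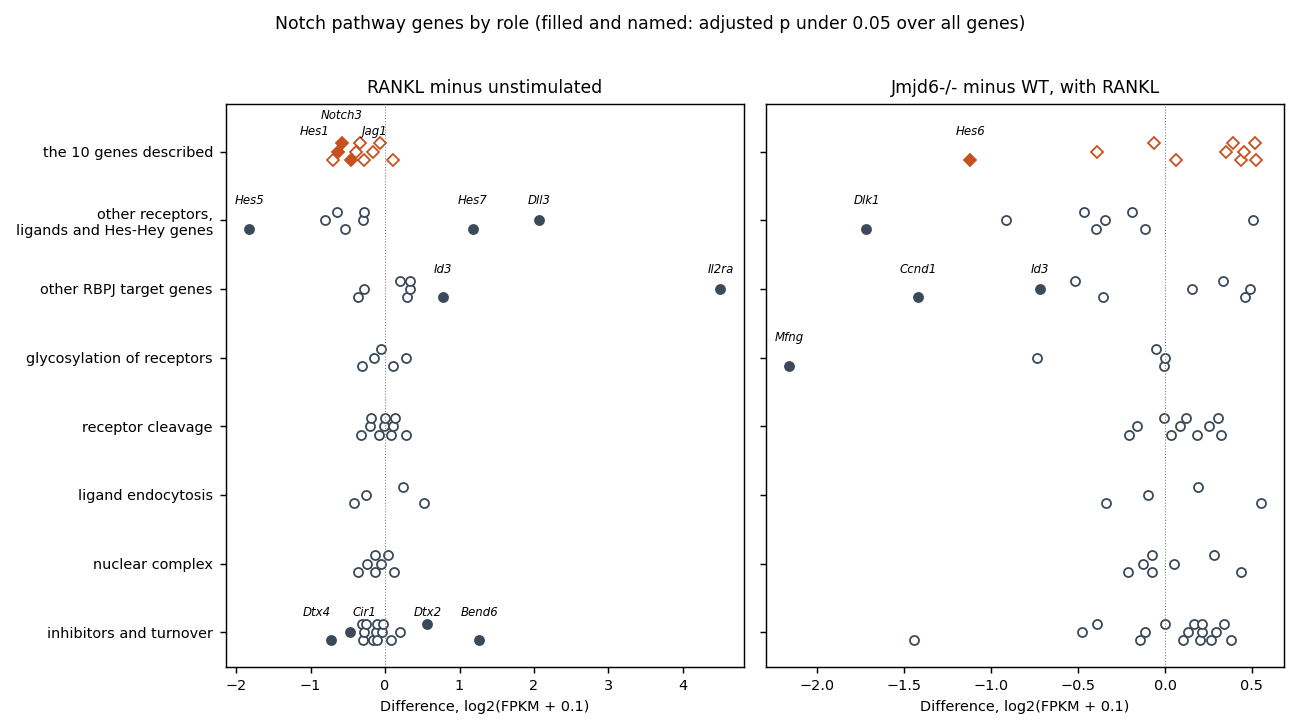
Log2 differences, on the log2(FPKM + 0.1) scale, of the 10 genes (diamonds) and of 58 other pathway genes (circles), 1 row per role, for RANKL against unstimulated libraries (left) and *Jmjd6*-/- against WT with RANKL (right). Filled, named points passed an adjusted p of 0.05 over all genes, 3 of the 10 and 9 of the 58 on the left and 1 of the 10 and 4 of the 58 on the right.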

How the data were processed

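Poly-A RNA of fetal thymic stroma was sequenced in 6 paired-end libraries. The authors mapped the filtered reads to mm10 with TopHat2 2.0.10 and computed FPKM per gene with Cufflinks 2.1.1, with correction for multiply mapped reads and a strand-specific library type, although the library kit marks no strand. The FPKM values were used as deposited, and 198 of 22513 entries name more than 1 gene. The labels gave genotype, stimulation and replicate. The 10 genes, the other pathway genes and the cell type markers were listed by name, with earlier results of these data known.

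Log2 values of FPKM with 0.1 added were fitted with limma 3.58.1 in R 4.3.3 with a mean-variance trend, two-sided tests and Benjamini-Hochberg adjustment, over the 15894 genes whose mean reached 0.1 FPKM. RANKL was tested with genotype as a term, and genotype among RANKL libraries and its interaction with RANKL in a model of 4 group means. The lone unstimulated libraries are assumed to vary like the others. For 2 against 2 libraries the smallest p of an exact permutation test is 0.333. Genes other than the 10 were named where called in either comparison, where their mean was at least 5 FPKM, or among the 3 most similar patterns of a called gene. Markers at or near 0, *Cd4*, *Gm17276* and *A930024N18Rik* were named only once their values or overlap were known. Depth was estimated from the steps between FPKM values under 0.15, and the estimates are approximate. The script was tested on simulated data. The alternatives tried were 1 or 0.01 as the constant added, a filter at 1 FPKM or none, no trend, scaling to equal totals or by median ratios, removal of a GC trend, each RANKL library left out, no genotype term, the RANKL libraries alone with or without a replicate block, and, chosen after seeing the data, genotype over all 6 libraries. Markers *Ccl21a* and *Adgre1* were not matched by name.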

Additional observations from a re-analysis of the deposited data

How the results depend on the processing

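Counts of called genes depended on the settings more than the differences did. With RANKL, 3 of the 10 genes were lower, against 1 without the filter on low values, 1 without the mean-variance trend and 1 without the genotype term. Leaving out 1 RANKL library at a time, the number ran from 0 (without *Jmjd6*-/- RANKL replicate 1) to 5 (without WT RANKL replicate 2). Between genotypes, 1 gene was lower, against 0 without the filter and 0 without the trend, and the number ran from 0 (without either *Jmjd6*-/- RANKL replicate) to 1 with libraries left out. The number of genes higher in *Jmjd6*-/- stroma, 0, became 2 over all 6 libraries and ran from 0 to 4 (without WT RANKL replicate 1). *Hes6* was called in 11 of 15 alternatives, with log2 differences between -1.25 and -0.99 and adjusted p from 3.27e-05 to 0.180, and without the trend it missed the threshold (adjusted p = 0.0549 from limma). The falls of *Notch3*, *Jag1* and *Hes1* with RANKL were called in 11, 8 and 9 of 13. Fits that leave a lone library in a group assume that it varies like the others.

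A sign turned in 6 cases, all with 1 library left out. The genotype difference of *Hes1* ran from -0.26 (without WT RANKL replicate 1) to 0.14 (without WT RANKL replicate 2). The difference in response, called for none, ran from -0.0021 (without WT RANKL replicate 2) to 0.12 for *Notch1*, from -0.12 (without WT RANKL replicate 1) to 0.28 for *Hes1*, from -0.21 to 0.047 (without WT RANKL replicate 1) for *Hes6*, from -0.0999 to 0.0052 (without *Jmjd6*-/- RANKL replicate 1) for *Hey1* and from -0.069 (without WT RANKL replicate 1) to 0.82 for *Heyl*. The cause was not tested.

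Replicate numbers did not pair the RANKL libraries (correlation of their deviations -0.078), and a fit of the 4 RANKL libraries with a replicate block gave -1.12 for *Hes6* (adjusted p = 3.27e-05 from limma) and 382 higher and 1077 lower genes over the whole table, against 82 and 290. Those numbers were 1 and 1 without the filter, 2254 and 1737 without WT RANKL replicate 1, and 20 and 68 without *Jmjd6*-/- RANKL replicate 2. Genes lower with RANKL, 654, ranged from 153 without *Jmjd6*-/- RANKL replicate 1 to 1478 without WT RANKL replicate 2. Scaling moved the median of all genes by at most 0.036 (log2).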
